A study of Mus musculus with 4 samples.

Results

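The genes that carry new proteins into the endoplasmic reticulum (ER), attach N-linked glycans to them and move them between ER and Golgi were examined by ribosome profiling (Ribo-seq) in mouse spermatocytes. Members were chosen by gene symbol: the *Sec* genes with a number (other than *Sec14* genes), *Ssr1* to *Ssr4*, the *Srp* genes with a number, *Srpr* and *Srprb*, *Spcs1* to *Spcs3*, the *Tmed* genes, the coatomer *Cop* genes, and *Rpn1*, *Rpn2*, *Dad1*, *Ddost*, *Stt3a*, *Stt3b*, *Arcn1*, *Sar1a* and *Sar1b*. This gave 63 of the 11598 genes with values. By role they were 9 genes of the signal recognition particle (SRP) and its receptor, 5 translocon genes, 4 genes of the translocon-associated protein (TRAP) complex, 5 signal peptidase genes, 6 oligosaccharyltransferase (OST) genes, 12 COPII genes, 3 *Sec22* SNARE genes, 9 COPI genes and 8 p24 cargo receptor genes. The other 2, *Sec1*, a fucosyltransferase-related gene that matches by its letters alone, and *Sec23ip*, which encodes a partner of the COPII coat, were kept apart.

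Ribosome-protected fragments (RPFs) were sequenced from leptotene/zygotene (L/Z) spermatocytes sorted by flow cytometry from testes of 12 dpp mice, with 2 control and 2 *Eef1g*-cKO libraries described as independent biological replicates. In *Eef1g*-cKO mice, exons 2 to 7 of *Eef1g*, which encodes a subunit of the eEF1B elongation factor complex, were deleted with *Stra8*-GFPCre, a recombinase expressed in male germ cells from the spermatogonial stage. The floxed allele was made on a C57BL/6J background. The labels call the control mice wild type, and whether these carried a floxed allele or the recombinase is not given in the sources used here. How many mice went into a library is not given either, so the p-values measure only the spread between these libraries. RPF abundance was not set against mRNA abundance here, so a difference does not separate mRNA level from ribosome occupancy. For meiotic transcripts, the paper proposes that raised RPF density likely reflects altered ribosome dynamics and not more translation output.

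Proteins with a signal sequence are recognised by SRP while still being made, and the SRP receptor brings their ribosomes to the Sec61 channel in the ER membrane. There TRAP assists insertion, signal peptidase removes the signal sequence and OST transfers a preassembled glycan to asparagine residues. COPII vesicles then carry cargo out of the ER with the help of p24 receptors, and COPI vesicles return proteins from the Golgi to the ER. Germ cells use this route for surface receptors, adhesion proteins and, later, the acrosome.

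The libraries differed in depth, with 2479504 and 1384282 reads on genes in the control libraries against 223906 and 407979 in those of *Eef1g*-cKO. The reads of the median member numbered 204 and 122 in control against 27 and 47 in *Eef1g*-cKO, and 3 members had 0 reads in each *Eef1g*-cKO library. On *Eef1g* itself there were 107 and 58 control reads against 0 and 4, a difference that did not pass the adjusted threshold in the main test (limma, adjusted p = 0.0731) and that edgeR called decreased (adjusted p = 0.00780). Of the germ cell markers, limma called 6 of 10 spermatogonial genes decreased, 5 of 12 L/Z genes increased and 1, *Stra8*, decreased, and 2 of 7 pachytene genes, *Hist1h1t* and *Clgn*, increased, while 2 others of the 7 had negative log2 fold changes. The summed level of 10 spermatogonial markers was 1520 and 1790 FPKM (reads per 1000000 on genes and kilobase of gene) in control and 283 and 265 FPKM in *Eef1g*-cKO. The 12 L/Z markers summed to 2163 and 1776 FPKM in control and 4500 and 4053 FPKM in *Eef1g*-cKO. Pachytene markers (7 of 10 in the table, without *Pgk2*, *Acr* and *Ccna1*) summed to 668 and 507 FPKM in control against 1871 and 1786 FPKM in *Eef1g*-cKO. Sertoli cell markers (10 of 12 in the table) summed to 594 and 173 FPKM in control and 170 and 125 FPKM in *Eef1g*-cKO, with *Gata4* at 0 reads in both *Eef1g*-cKO libraries. Spermatid markers (4 of 8) summed to 10.5 and 55.9 FPKM in control and 3.42 and 18.9 FPKM in *Eef1g*-cKO, and peritubular markers (4 of 6) to 61.3 and 56.7 against 31.9 and 29.8 FPKM. None of the 6 macrophage markers had values. Of 7 Leydig cell markers 3 had values, with a sum of at most 5.82 FPKM, and the defining *Cyp17a1*, *Insl3* and *Lhcgr* had none. The part of stage composition and depth in the results below was not tested, and in bulk libraries fewer cells of a type and less RNA per cell cannot be told apart.

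The sequences below compare pairs of close relatives among the members. *Sec61a1* (chr6:88503607-88518800) and *Sec61a2* (chr2:5870977-5895432) encode alternative channel subunits whose proteins are 93.5% identical. *Copg1* (chr6:87887819-87913595) and *Copg2* (chr6:30747554-30896815) encode alternative γ subunits of the COPI coat that are 80.8% identical. The first 90 bases of each coding sequence are given 5′ to 3′ from the start codon, with the bases that differ within the pair in capitals (22 in the first pair and 16 in the second).
Sec61a1: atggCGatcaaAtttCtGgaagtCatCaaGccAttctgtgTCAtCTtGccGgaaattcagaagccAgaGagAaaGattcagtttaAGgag
Sec61a2: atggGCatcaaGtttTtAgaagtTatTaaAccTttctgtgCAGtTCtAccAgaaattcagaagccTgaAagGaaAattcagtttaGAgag
Copg1: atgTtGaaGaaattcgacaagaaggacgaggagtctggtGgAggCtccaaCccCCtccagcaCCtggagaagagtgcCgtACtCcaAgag
Copg2: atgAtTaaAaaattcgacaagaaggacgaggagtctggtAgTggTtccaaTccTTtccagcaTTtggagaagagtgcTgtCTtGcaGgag
The pairs shared 0% and 0.116% of the 28-base windows of the first gene's coding sequence, so nearly all RPFs of that length can be assigned to 1 gene of each pair. The exception was 3 windows of *Copg1*, which lie in the longest identical run of the stretch printed above. Coordinates are RefSeq GRCm38.p6, and coding sequences are GENCODE models of the same build. For some other members this did not hold. All windows of *Srp54a* and *Srprb*, 97.8% of those of *Srp9*, 91.1% of *Srp54c*, 88.1% of *Sec61b*, 85.1% of *Tmed10* and 50.9% of *Srpr* occurred also in another annotated gene, for *Srp9* and *Tmed10* a pseudogene. How the authors' counting treated such reads is not given in the sources used here, so the levels of these genes are uncertain.

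Of the 63 members, 61 reached a mean of 1 FPKM and were tested with limma on log2(FPKM + 1) across all 10475 such genes, and *Srp54a* and *Sec16b* did not. RPF abundance was increased in *Eef1g*-cKO for 5 members, *Tmed10*, *Dad1*, *Rpn2*, *Sec63* and *Stt3b*, and decreased for 1, *Srp9* (adjusted p under 0.05 and |log2 (fold change)| above 1). Among all tested genes the same rule called 2.87% increased and 4.97% decreased. By unadjusted p with the same fold limit, *Ssr4*, *Ssr2*, *Sec61a2* and *Tmed7* were added to the increased members, giving 9 increased and 1 decreased, where 7.32% of all tested genes were increased and 16.3% decreased. The median log2 fold change of the tested members was 0.28, against −0.23 over all tested genes. It was 0.069 without control replicate 1, 0.17 without *Eef1g*-cKO replicate 1, 0.50 with libraries centred on their medians and 0.078 with a trend in GC content removed. For 27 tested members each *Eef1g*-cKO library exceeded each control library, and for 13 each was lower, against 24.6% and 37.7% of all tested genes.

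The 6 adjusted calls were not stable across fits. For the fits below that lost all of them, the share of all genes called is not given here. Whether the loss is particular to these members was therefore not tested. By limma's unadjusted p, 9 members were still increased and 1 decreased with a pseudocount of 0.1 FPKM or an untrended prior variance. After thinning 8 were increased and 3 decreased. None of the 6 was made without control replicate 1, without control replicate 2, with a pseudocount of 0.1 FPKM, with an untrended prior variance or with all libraries thinned to the depth of the shallowest, while the 5 increased members were also called by edgeR and DESeq2 on the recovered reads. edgeR called 12 of the 54 members it tested increased and 0 decreased at adjusted p, where it called 8.75% of all genes increased and 11.2% decreased. The fold limit left out *Sec61a1*, *Copb2*, *Copg1* and *Copz1*, lower in *Eef1g*-cKO, and *Sar1b* and *Sec62*, higher. All of these had edgeR adjusted p under 0.05.

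**Figure D1:**
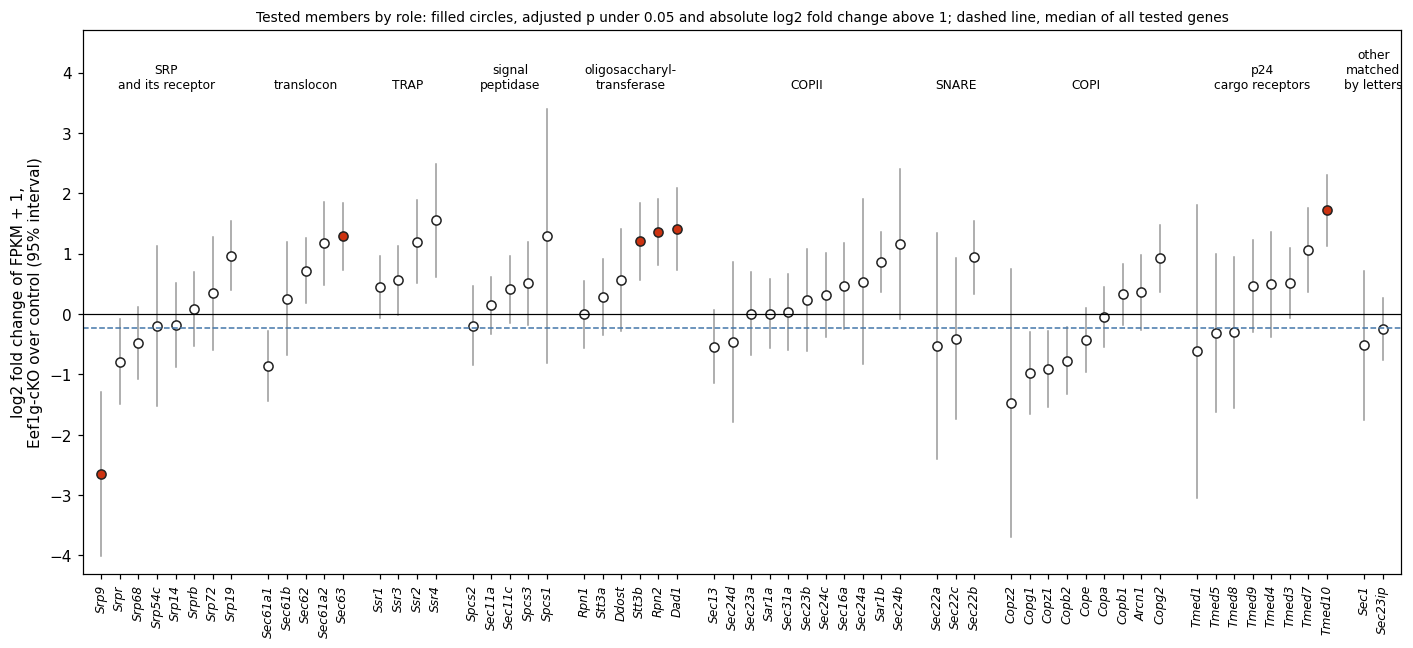
Log2 fold change of FPKM + 1 (*Eef1g*-cKO over control, vertical axis) of the 61 tested members, grouped by role along the horizontal axis, with 95% intervals from limma. Filled circles are the 6 called members, and the dashed line at −0.23 is the median of all tested genes; the OST, TRAP and translocon groups lie mostly above 0, and COPI and SRP spread to both sides.

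The share of reads on the members was 9309 and 11411 reads per 1000000 in control against 12671 and 12385 in *Eef1g*-cKO. Every *Eef1g*-cKO library was above every control library, with a ratio of means of 1.21 (exact two-sided permutation test, p = 0.333, the smallest p that 2 against 2 libraries allow). The roles differed in size and direction. OST genes took 1948 and 2822 reads per 1000000 in control against 3769 and 3601 in *Eef1g*-cKO. TRAP genes took 686 and 756 against 1130 and 1226, and p24 receptors 435 and 657 against 898 and 890. Translocon genes took 866 and 1001 against 1362 and 1147, and signal peptidase genes 289 and 334 against 371 and 348. COPII genes took 1080 and 1162 against 1318 and 1230, and *Sec22* genes 93.6 and 73.0 against 129.5 and 123. In all 7 of these groups both *Eef1g*-cKO libraries were above both control libraries. Among single tested genes 24.6% had this pattern, and no share was computed for summed groups. The sums do not mean that every gene rose. Except for TRAP, each of these groups held at least 1 tested gene with a negative log2 fold change, and *Sec22* held 2 of 3. COPI genes took 2661 and 3186 reads per 1000000 in control against 2479 and 2716 in *Eef1g*-cKO, so the genotypes overlapped, and SRP genes took 902 and 1057 against 893 and 831, both *Eef1g*-cKO libraries being lower.

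**Figure D2:**
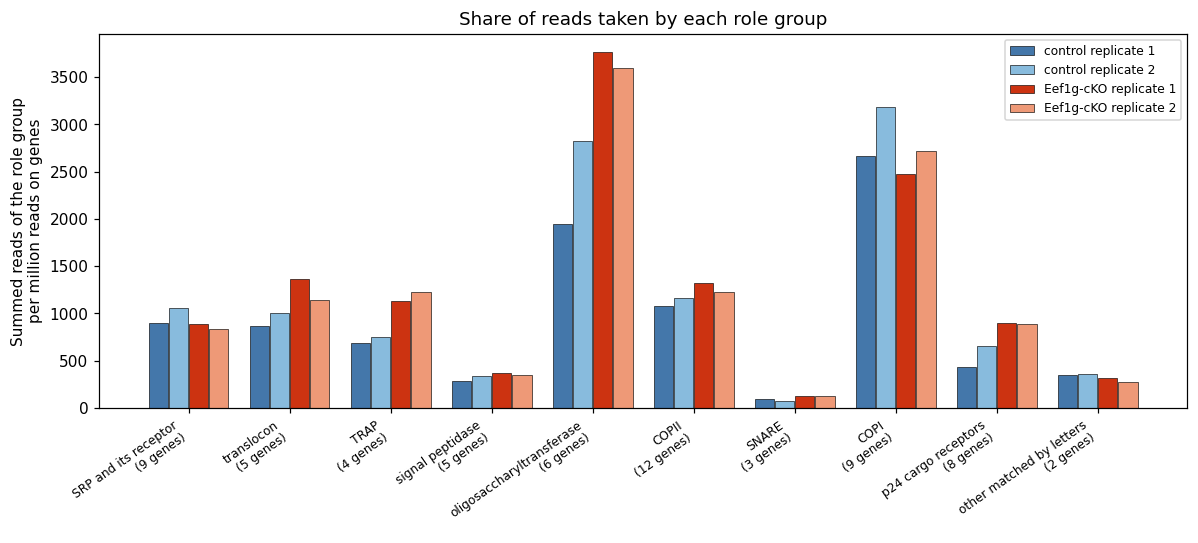
Summed reads of each role group per 1000000 reads on genes (vertical axis, bars from 0), with 1 bar for each library. The bars of OST, TRAP, p24, translocon, signal peptidase, COPII and *Sec22* genes are higher in both *Eef1g*-cKO libraries than in both control libraries, those of SRP are lower, and those of COPI overlap.

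In SRP and its receptor, 0 of 8 tested genes were increased and 1 was decreased, with a median log2 fold change of −0.19 that turned to 0.02 when each library was centred on its median. *Srp9* encodes a subunit of the Alu domain of SRP, which slows elongation until the ribosome is docked. Its control libraries held 26 and 7 reads and both *Eef1g*-cKO libraries 0, or 7.55 and 3.64 FPKM against 0 (limma, adjusted p = 0.0475). At the *Eef1g*-cKO depths 3 reads would be 9.65 and 5.30 FPKM, above both control levels in the first library and between them in the second, so no fold is given, and edgeR and DESeq2 gave it no adjusted p. *Srp14*, its partner in the Alu domain and the most abundant member of the role by FPKM, had 456 and 644 FPKM in control and 565 and 406 FPKM in *Eef1g*-cKO. These groups overlapped (log2 fold change −0.18, 95% interval −0.87 to 0.52), and the sign turned under centring. *Srp19*, which helps to assemble the particle, had a log2 fold change of 0.97 (adjusted p = 0.0584) on 53, 34, 10 and 19 reads. The α subunit of the receptor, *Srpr*, chosen after its values were seen, had 26.0 and 33.7 FPKM in control and 15.2 and 18.4 FPKM in *Eef1g*-cKO (log2 fold change −0.79, adjusted p = 0.131). *Srp68*, *Srp72*, *Srprb* and *Srp54c* had log2 fold changes between −0.48 and 0.34.

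Of the 5 translocon genes, 1 was increased and 0 decreased, with a median log2 fold change of 0.72. *Sec63*, the J-domain protein that recruits the ER chaperone BiP to the channel, had 30.5 and 29.5 FPKM in control and 82.2 and 67.5 FPKM in *Eef1g*-cKO. The 2 control libraries were nearly equal and both *Eef1g*-cKO libraries were higher. The log2 fold change was 1.28 ± 0.23 (SE, limma, adjusted p = 0.0375), and it was 0.75 and no longer called when a trend with GC content was removed. The call was also lost without *Eef1g*-cKO replicate 1 (limma, adjusted p = 0.0568). *Sec62*, the partner of *Sec63*, had a log2 fold change of 0.72 (adjusted p = 0.0941), and *Sec61b*, the β subunit of the channel, had 0.25 on 22, 7, 2 and 3 reads.

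The genes of the channel subunit itself had log2 fold changes of opposite sign. *Sec61a1* was the translocon gene with the highest mean FPKM over the 4 libraries. It had 119 and 163 FPKM in control and 77.9 and 74.2 FPKM in *Eef1g*-cKO (log2 fold change −0.86 ± 0.23, limma, adjusted p = 0.0738). In *Eef1g*-cKO alone *Sec62* was higher, at 120 and 97.6 FPKM. *Sec61a2*, chosen after its values were seen, had 28.9 and 19.8 FPKM in control and 60.3 and 50.7 FPKM in *Eef1g*-cKO (1.17 ± 0.28, adjusted p = 0.0587). Neither passed the adjusted threshold in limma, and the genotypes did not overlap for either gene. *Sec61a2* was called increased by edgeR (adjusted p = 0.00665) and DESeq2 (adjusted p = 0.0353). *Sec61a1* passed adjusted p in edgeR (0.0157) and DESeq2 (0.0463) and missed only the fold limit. Expressed as a share of the reads on both genes, which does not depend on library scaling, *Sec61a2* took 16.0% (Wilson 95% interval 13.9 to 18.3) and 8.68% (6.87 to 10.9) in control. The share was 37.6% (28.1 to 48.3) and 34.8% (27.4 to 42.9) in *Eef1g*-cKO. The intervals, which cover counting error only, did not touch, and the mean share was 12.3% ± 5.16 in control and 36.2% ± 2.05 in *Eef1g*-cKO (SD, n = 2, exact permutation p = 0.333, the smallest possible). Both genes together had 301 and 379 reads per coding kilobase per 1000000 in control against 266 and 242 in *Eef1g*-cKO. *Sec61a2* shares 909 exon bases with *Nudt5* on the opposite strand. *Nudt5* had 37.6 and 33.6 FPKM in control and 39.3 and 37.0 FPKM in *Eef1g*-cKO, and the strand setting of the counting is not given in the sources used here.

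All 4 TRAP genes were higher in both *Eef1g*-cKO libraries than in both control libraries, as were 24.6% of all tested genes. By adjusted p in limma 0 were called, 2 by unadjusted p, and 2, *Ssr2* and *Ssr4*, by edgeR and by DESeq2. *Ssr2*, the β subunit, had 90.0 and 147 FPKM in control and 257 and 276 FPKM in *Eef1g*-cKO (log2 fold change 1.20 ± 0.28, adjusted p = 0.0561; edgeR adjusted p = 0.00121). *Ssr4*, the δ subunit, chosen after its values were seen, had 32.6 and 66.5 FPKM in control and 117 and 165 FPKM in *Eef1g*-cKO (1.55 ± 0.38, adjusted p = 0.0617). The control libraries of *Ssr4* differed from each other by a larger ratio than control replicate 2 and *Eef1g*-cKO replicate 1 did. *Ssr1* and *Ssr3*, the α and γ subunits, had log2 fold changes of 0.45 and 0.56 with 95% intervals that reached just below 0.

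No signal peptidase gene was called in either direction by adjusted or unadjusted p in limma, or by adjusted p in edgeR or DESeq2. *Sec11a*, a catalytic subunit and the most abundant member of the role, had 120 and 133 FPKM in control and 140 and 139 FPKM in *Eef1g*-cKO, a log2 fold change of 0.15 (95% interval −0.33 to 0.62) that turned to −0.14 when the GC trend was removed. *Spcs1* had the largest log2 fold change of the role, 1.29, on 5, 24, 3 and 9 reads, and its 95% interval ran from −0.81 to 3.39. *Sec11c*, the other catalytic subunit, and *Spcs3* and *Spcs2* had 0.41, 0.51 and −0.19. The interval of *Sec11a* leaves out a change as large as that of the called members, and the interval of *Spcs1* does not.

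OST held 3 of the 5 increased members, and 0 of its 6 genes were decreased, with a median log2 fold change of 0.88. *Rpn2* (ribophorin II, chr2:157279098-157326318) had 128 and 158 FPKM in control and 334 and 404 FPKM in *Eef1g*-cKO, a log2 fold change of 1.36 ± 0.22 (limma, adjusted p = 0.0344). *Dad1* (chr14:54235485-54253929), named for the death of cells that lack it, had 11.9 and 15.7 FPKM in control and 39.5 and 36.8 FPKM in *Eef1g*-cKO (1.42 ± 0.28, adjusted p = 0.0420). For both genes, both *Eef1g*-cKO libraries were above both control libraries, and the call of *Dad1* was also lost without a filter on low values (adjusted p = 0.0504). *Ddost*, the 48 kDa subunit and the most abundant OST gene, had 271 and 521 FPKM in control and 595 and 522 FPKM in *Eef1g*-cKO (0.57, 95% interval −0.28 to 1.41), with control replicate 2 level with *Eef1g*-cKO replicate 2. *Rpn1* (ribophorin I) had a log2 fold change of −0.01 (95% interval −0.57 to 0.55).

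The catalytic subunits of OST define separate complexes, in which STT3A acts at the channel during translation and STT3B also modifies sites that were skipped. *Stt3b* had 40.9 and 30.0 FPKM in control and 91.0 and 73.8 FPKM in *Eef1g*-cKO (log2 fold change 1.20 ± 0.26, adjusted p = 0.0491). *Stt3a* had 100 and 142 FPKM in control and 161 and 132 FPKM in *Eef1g*-cKO, with overlapping groups (0.28, 95% interval −0.34 to 0.91). *Stt3b* took 39.0% (36.1 to 41.9) and 24.8% (21.7 to 28.1) of the reads on both genes in control and 47.0% (39.9 to 54.2) and 46.7% (40.8 to 52.6) in *Eef1g*-cKO. Both *Eef1g*-cKO shares were above both control shares, but the Wilson intervals of control replicate 1 overlapped those of *Eef1g*-cKO. The adjusted call of *Stt3b* was also lost without *Eef1g*-cKO replicate 1 (adjusted p = 0.0842), without a filter on low values (0.0568) and with the GC trend removed (log2 fold change 0.97). Of the thioredoxin-like subunits that work with STT3B, *Tusc3*, chosen after its values were seen, had a log2 fold change of 1.19 (limma adjusted p = 0.0759, edgeR 0.00967, DESeq2 0.0426) and *Magt1* 0.16 (limma adjusted p = 0.824).

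**Figure D3:**
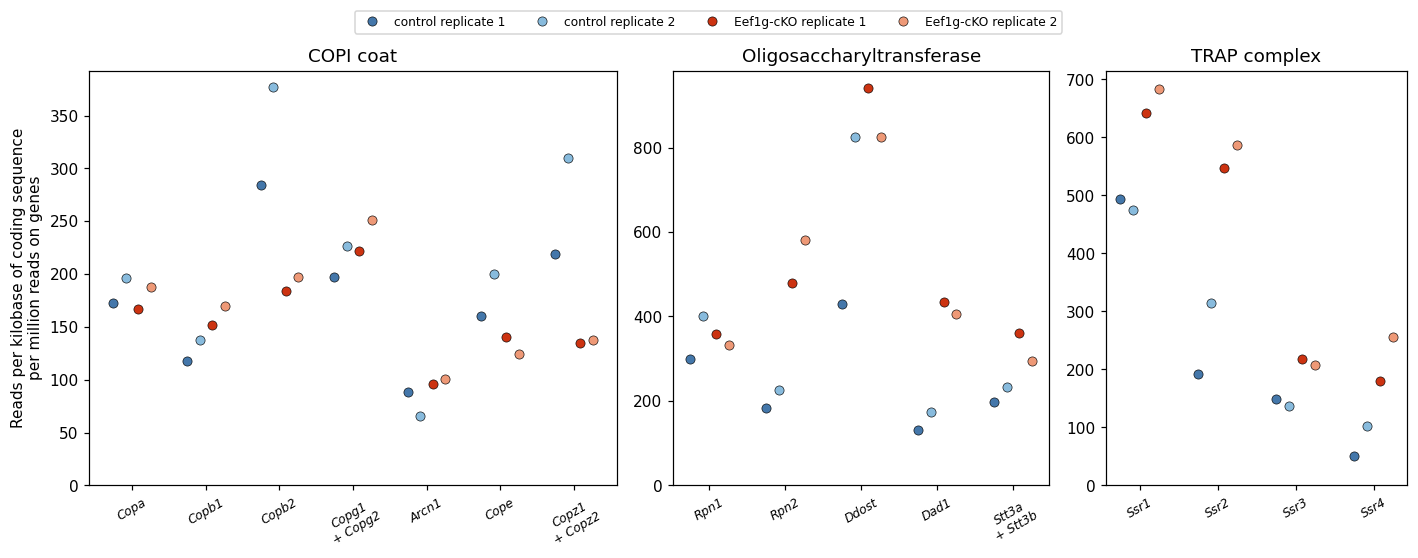
Reads per kilobase of coding sequence per 1000000 reads on genes (vertical axes, linear from 0) for the subunits of COPI, OST and TRAP in each library, with alternative subunits of 1 position summed. *Rpn2*, *Dad1* and all 4 TRAP subunits are higher in both *Eef1g*-cKO libraries, and *Copb2*, *Cope* and the ζ subunits are lower.

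Levels of different genes were compared per kilobase of coding sequence. Within OST the lowest of 5 subunits in control was *Dad1*, at 131 and 173 reads per coding kilobase per 1000000, and the highest was *Ddost*, at 430 and 825. The highest was thus 3.28 and 4.78 times the lowest in control. In *Eef1g*-cKO the ratio was 2.63 and 2.81. *Ddost* was again the highest, at 942 and 826, and *Dad1*, at 435 and 405, was no longer the lowest. The lowest was *Rpn1* in *Eef1g*-cKO replicate 1, at 357, and the sum of *Stt3a* and *Stt3b* in replicate 2, at 294. In TRAP the highest subunit, *Ssr1*, was 9.77 and 4.60 times the lowest in control and 3.55 and 3.29 times in *Eef1g*-cKO. In COPI, with 7 subunits, the ratio was 3.20 and 5.76 in control against 2.31 and 2.49 in *Eef1g*-cKO. In all 3 complexes both *Eef1g*-cKO libraries had the narrower range, which is given as a description with 2 libraries per genotype.

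None of the 11 tested COPII genes was called by adjusted p, or by unadjusted p with |log2 (fold change)| above 1, in limma. edgeR called 1, *Sec24b*, increased (adjusted p = 0.0384), and DESeq2 did not (adjusted p = 0.156). The median log2 fold change was 0.23. *Sec13*, a subunit of the outer coat that is also part of the nuclear pore and the most abundant COPII gene by FPKM, had 105 and 148 FPKM in control and 79.0 and 92.3 FPKM in *Eef1g*-cKO (−0.54, 95% interval −1.15 to 0.06). *Sar1a*, the GTPase that starts the coat, had a log2 fold change of 0.00 (95% interval −0.57 to 0.57) and its relative *Sar1b* 0.86 (0.37 to 1.36, limma unadjusted p = 0.00554, adjusted p = 0.0564), below the fold limit. *Sar1b* took 40.7% (36.1 to 45.4) and 42.6% (36.6 to 48.9) of the reads on both genes in control and 55.4% (42.4 to 67.6) and 57.8% (47.5 to 67.5) in *Eef1g*-cKO. The *Eef1g*-cKO shares were higher and the counting intervals overlapped. The inner coat genes *Sec23a*, *Sec23b*, *Sec24a*, *Sec24c* and *Sec24d*, the outer coat gene *Sec31a* and the scaffold *Sec16a* lay between −0.46 and 0.54, with 95% intervals that crossed 0. *Sec24b* (1.16, 95% interval −0.08 to 2.41) rested on 39 and 57 reads in control against 12 and 31 in *Eef1g*-cKO. *Sec16b* had 6 and 7 reads in control and 0 in both *Eef1g*-cKO libraries, where a count of 0 allows up to 2.88 and 1.58 FPKM, above both control levels.

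The *Sec22* SNARE genes likewise had 0 calls by adjusted p, or by unadjusted p with the same fold limit, in limma. *Sec22b*, the form that acts in ER-Golgi fusion, had 28.4 and 31.4 FPKM in control and 66.4 and 51.3 FPKM in *Eef1g*-cKO, so both *Eef1g*-cKO libraries were higher (0.94 ± 0.25, limma unadjusted p = 0.00899, adjusted p = 0.0683). It was called by edgeR (adjusted p = 0.0216) and not by DESeq2 (adjusted p = 0.106). *Sec22a* and *Sec22c* were at most 7.48 FPKM in any library, and their log2 fold changes of −0.53 and −0.41 had 95% intervals that crossed 0.

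No COPI gene was called by adjusted p, or by unadjusted p with |log2 (fold change)| above 1, in limma. edgeR and DESeq2 each called 1, *Copg2*. Of the genes lower in *Eef1g*-cKO, *Copg1* (adjusted p = 0.0100 in edgeR, 0.0384 in DESeq2) and *Copb2* (0.0231, 0.0394) missed only the fold limit. *Copz1* passed adjusted p in edgeR (0.0417) but not in DESeq2 (0.177), and missed the fold limit in both. Of the 9 genes of this coat, both *Eef1g*-cKO libraries were below both control libraries for 5 and above them for 3. Among all tested genes these shares were 37.7% and 24.6%. *Copb2*, the β′ subunit and the most abundant COPI gene, had 253 and 336 FPKM in control and 164 and 176 FPKM in *Eef1g*-cKO (−0.77 ± 0.22, adjusted p = 0.0837). With the GC trend removed it was −1.14 and called decreased (adjusted p = 0.0418). *Copz1*, the ζ1 subunit, chosen after its values were seen, had 66.7 and 96.4 FPKM in control and 42.9 and 41.2 FPKM in *Eef1g*-cKO (−0.91 ± 0.26, adjusted p = 0.0788). The α subunit *Copa* had a log2 fold change of −0.06 (95% interval −0.55 to 0.44), and *Cope*, *Copb1* and *Arcn1* had −0.44, 0.33 and 0.36, with 95% intervals that crossed 0. *Copz2* had at most 15 reads in any library.

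As with the Sec61 channel, the alternative γ subunits of COPI had log2 fold changes of opposite sign, and both are named here after their values were seen. *Copg1* had 55.4 and 82.3 FPKM in control and 36.7 and 31.0 FPKM in *Eef1g*-cKO (−0.98 ± 0.28, adjusted p = 0.0797, edgeR adjusted p = 0.0100). *Copg2* had 66.3 and 55.2 FPKM in control and 103 and 129 FPKM in *Eef1g*-cKO (0.92 ± 0.23, adjusted p = 0.0623; edgeR adjusted p = 0.00313). *Copg2* took 51.6% (Wilson 95% interval 48.9 to 54.4) and 37.4% (34.2 to 40.8) of the reads on both genes in control and 71.5% (63.3 to 78.6) and 78.7% (73.4 to 83.2) in *Eef1g*-cKO. The genotypes did not overlap and the intervals did not touch. Both genes summed to 197 and 226 reads per coding kilobase per 1000000 in control against 222 and 251 in *Eef1g*-cKO, which overlapped, so the sum differed less than either gene. *Copg2* shares 912 exon bases with the imprinted gene *Mest* on the opposite strand, and *Mest* had 11, 3, 0 and 1 reads in the 4 libraries.

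Of 9 paralogue pairs compared, the intervals of the control and *Eef1g*-cKO libraries were apart for 2, *Sec61a1*/*Sec61a2* and *Copg1*/*Copg2*, with differences of 23.9 and 30.6 percentage points between the genotype means. For *Sec23a*/*Sec23b* the shares overlapped, at 63.4% and 78.4% on *Sec23b* in control and 79.8% and 68.8% in *Eef1g*-cKO. *Sec11c* took 17.3% and 14.2% of its pair in control and 18.6% and 18.2% in *Eef1g*-cKO. Exact permutation p was at best 0.333 for each pair.

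**Figure D4:**
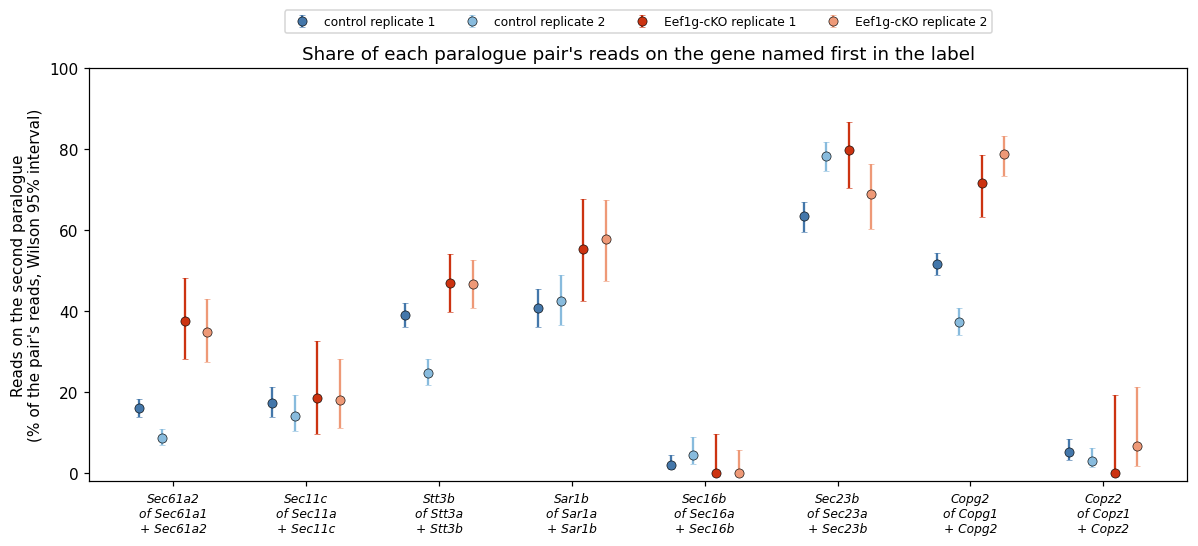
Percentage of the reads of 8 paralogue pairs that fell on the second gene of the pair (vertical axis), in each library, with Wilson 95% intervals for counting error. *Sec61a2* and *Copg2* take a larger share in both *Eef1g*-cKO libraries with intervals clear of both control libraries; *Sec11c*, *Sec23b* and *Copz2* overlap between genotypes within their intervals.

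Among the p24 cargo receptors, 1 of 8 genes was increased and 0 were decreased, with a median log2 fold change of 0.48. *Tmed10* (p24δ1, chr12:85340614-85374717), a main partner of the p24 complexes, had 20.6 and 21.3 FPKM in control and 63.3 and 79.9 FPKM in *Eef1g*-cKO. All 4 values fell into separate genotype ranges, and the log2 fold change of 1.72 ± 0.24 (limma, adjusted p = 0.0296) was the largest increase among the tested members. Because 85.1% of its coding windows also lie in the pseudogene *Tmed10-ps*, part of its reads may belong to either locus. *Tmed7*, chosen after its values were seen, had 10.6 and 12.3 FPKM in control and 25.9 and 24.1 FPKM in *Eef1g*-cKO (1.06 ± 0.28, adjusted p = 0.0719). *Tmed9*, the most abundant member of the family, had 119 and 215 FPKM in control and 222 and 220 FPKM in *Eef1g*-cKO (0.46, 95% interval −0.31 to 1.23), so that control replicate 2 was close to both *Eef1g*-cKO libraries. *Tmed3* and *Tmed4* had log2 fold changes of 0.51 and 0.49, and *Tmed1*, *Tmed5* and *Tmed8*, at most 10.4 FPKM in any library, of −0.62, −0.31 and −0.30.

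**Figure D5:**
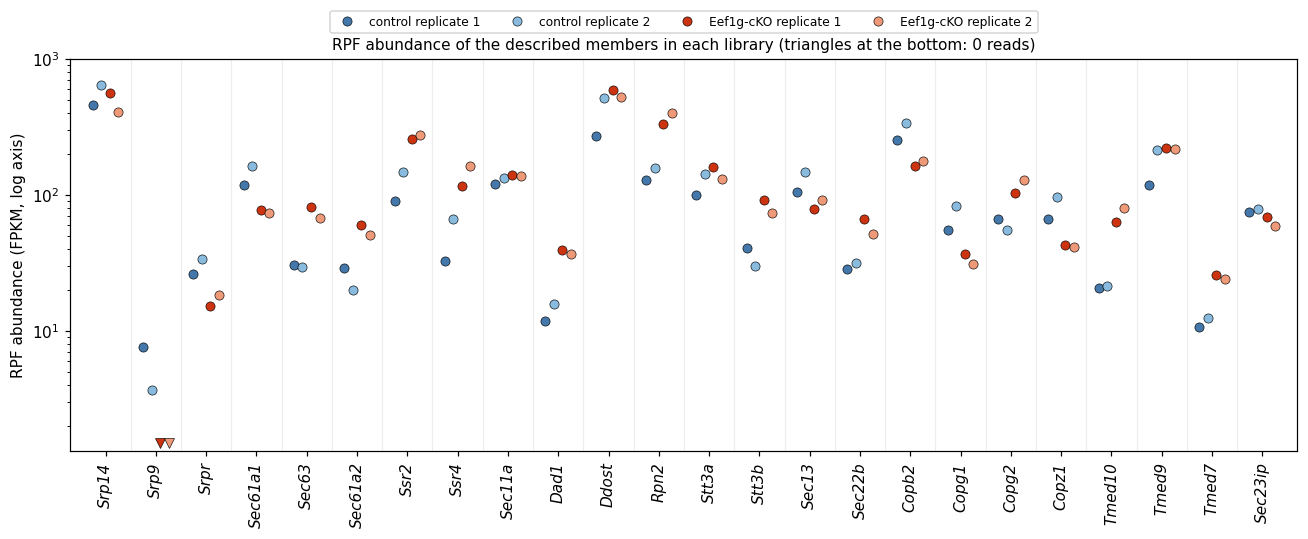
RPF abundance in FPKM (vertical log axis) of the members described gene by gene, with 1 point for each of the 4 libraries and triangles for 0 reads. Genes whose genotypes do not overlap include *Sec63*, *Rpn2*, *Dad1*, *Stt3b* and *Tmed10*, higher in *Eef1g*-cKO, and *Sec61a1*, *Copb2*, *Copg1* and *Copz1*, lower.

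Of the 2 genes kept apart, *Sec23ip* had 74.9 and 78.3 FPKM in control and 69.3 and 59.4 FPKM in *Eef1g*-cKO (−0.25, 95% interval −0.77 to 0.26). *Sec1* had at most 2.45 FPKM in any library.

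The promoters of the members were searched for elements that ER stress factors bind. The windows ran from 250 bases before to 50 bases after each RefSeq start (GRCm38.p6), on both strands, and 55 members had such a window. The core letters TGACGTGG, which ATF6 and XBP1 bind, occurred in 5 members (9.09%), *Copb1*, *Copb2*, *Sec16b*, *Sec23a* and *Sec24d*, all of them coat or coat-assembly genes. The same letters occurred in 1.01% of the promoters of genes in the table and 0.714% of all 27025 genes with a promoter sequence. The windows are printed on the strand that holds the motif, with the motif in capitals.
Copb1 (promoter chr7:114254631-114254930): ttggcTGACGTGGaaggg
Copb2 (promoter chr9:98563481-98563780): cccacTGACGTGGaactt
Sec16b (promoter chr1:157506546-157506845): gtggcTGACGTGGcacgg
Sec23a (promoter chr12:59011968-59012267): cccttTGACGTGGcagag
Sec24d (promoter chr3:123267246-123267545): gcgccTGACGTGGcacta
None of these 5 genes was among the called members, and the 4 that were tested had log2 fold changes of 0.33 (*Copb1*), −0.77 (*Copb2*), 0.00 (*Sec23a*) and −0.46 (*Sec24d*). The longer elements ERSE and ERSE-II, and the letters TGATGCAA, a site for ATF4 and CEBP dimers, occurred in 0 of the 55 windows, against 0.183%, 0.0916% and 0.699% of the promoters of genes in the table.

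Other genes of the same pathway were listed by role, with earlier results of these data known. Of 113 tested, 11 were increased and 2 decreased, with a median log2 fold change of 0.01. Among all tested genes 2.87% were increased and 4.97% decreased, and the median was −0.23. The COPII regulators and cargo receptors held 5 of the increased genes: *Lman2l* (2.57), *Creld2* (1.99), *Lman2* (1.79), *Cnih4* (1.53) and *Ergic3* (1.41). *Lman2* and *Lman2l* encode lectins that carry glycoproteins, *Ergic3* and *Cnih4* encode cargo receptors of the early secretory pathway, and *Creld2* encodes an ER-resident protein that is known as a marker of ER stress and is no coat regulator. *Lman2l* had 12.9 and 12.7 FPKM in control and 76.3 and 85.9 FPKM in *Eef1g*-cKO, and *Lman2* had 31.4 and 39.0 FPKM against 123 and 123 FPKM. Of 9 genes that associate with the translocon, *Ccdc47* (1.29) and *Nomo1* (1.19), which take part in inserting proteins with several membrane spans, were increased. Of 16 genes for tail anchor and EMC insertion, the EMC subunits *Emc10* (2.01) and *Emc7* (1.27) were increased, and *Asna1* (−2.71), the ATPase that targets tail-anchored proteins, was decreased. *Asna1* had 83.7 and 166 FPKM in control and 10.7 and 27.4 FPKM in *Eef1g*-cKO.

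Of 23 genes that build the dolichol-linked glycan, the donor for OST, 1 was increased and 1 decreased, with a median of −0.52. *Alg8*, a glucosyltransferase of the last steps, had 13.1 and 14.1 FPKM in control and 40.2 and 46.5 FPKM in *Eef1g*-cKO (1.60, adjusted p = 0.0334), and *Dpm3*, a subunit of dolichol-phosphate mannose synthase, had 53.6 and 88.7 FPKM against 8.99 and 19.7 FPKM (−2.28, adjusted p = 0.0412). In *Eef1g*-cKO, *Dpm3* rested on 1 and 4 reads. Of 31 tethers and SNAREs, *Rint1* (1.27) was increased. None of the 6 accessory OST genes and none of the 9 COPI regulators was called by adjusted p in limma. As for the members, 0 of these genes were called without control replicate 1, without control replicate 2, with an untrended prior variance or with thinned libraries.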

How the data were processed

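Ribo-seq libraries of L/Z spermatocytes were compared between genotypes, 2 against 2. RPFs of 26 to 34 nt were size-selected per the labels. The submitters' processing notes list cutadapt, Bowtie and STAR and the builds mm10 and hg38 without role or version, and the paper adds RiboMiner. The counter, annotation and strand setting for Ribo-seq are not given in the sources used here. The authors deposited FPKM, which equal the reads of a gene divided by its length in kilobases and by the library's reads on genes in units of 1000000. They also deposited a signal, counts scaled by 1 size factor in each library, whose values were 100% whole multiples of 1 step (tolerance 0.001 of a step), so the reads could be recovered. Genes with fewer than 10 reads over the 4 libraries are not in the table. Columns with the authors' fold changes and p-values for the same contrast were not used.

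limma 3.58.1 (R 4.3.3) was fitted to log2(FPKM + 1) of the 10475 genes that averaged 1 FPKM or more, with a trended prior variance, genotype only, and Benjamini-Hochberg adjustment over all genes. Fold changes on this scale understate those of low genes. edgeR 4.0.16 and DESeq2 1.42.0 on the recovered reads were alternatives. The main limma model, edgeR and DESeq2 were first run on simulated data, where limma was scored by unadjusted p. The other settings were not run on simulated data. Exact permutation tests and Wilson intervals used scipy 1.17.1, and 3 reads was the count that 0 reads allow. Thinning was 1 seeded draw. Shared windows of 28 bases were counted against all transcripts of the GENCODE annotation, without a filter on transcript type.

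The members and all gene lists were chosen with earlier results of these data known. Values by library are given for called members, the most abundant member of each role by FPKM, and both genes of a paralogue pair with a call. Values by library of any gene outside that rule, marked in the text or not, were chosen after they were seen, and the paralogue read shares, the subunit levels and the GC trend removal were added at that point too. Marker lists were spermatogonia, L/Z, pachytene, spermatid, Sertoli, Leydig, peritubular and macrophage.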

Additional observations from a re-analysis of the deposited data

How the results depend on the processing

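The count of increased members (5) was 0 with a pseudocount of 0.1, an untrended prior variance or thinned libraries, 3 without a filter on low values, 8 with a pseudocount of 5 or a minimum mean of 5 FPKM, 13 with libraries centred on their medians, 12 by edgeR, 9 by DESeq2 and 9 by unadjusted p. Where it was 0, limma's unadjusted p still called 9 with the pseudocount of 0.1, 9 with the untrended prior and 8 after thinning. The share of all genes called increased also moved, from 2.87% in the main fit to 8.75% by edgeR and 7.32% by unadjusted p. DESeq2 called 502 of 8450 genes increased. For the other settings the share over all genes is not given here, so their counts cannot be set against it. Decreased members (1) numbered 0 with a pseudocount of 0.1, a minimum mean of 5 FPKM, the untrended prior, centred libraries, edgeR, DESeq2 or thinning, and 2 with the GC trend removed. Leaving out 1 library gave 0 to 6 increased and 0 to 2 decreased members. The 0 calls came without either control library, where unadjusted p called 7 and 10 increased and 4 and 1 decreased. The members' median log2 fold change (0.28) was 0.23 with a pseudocount of 5, 0.36 with the minimum of 5 FPKM, 0.50 with centred libraries, 0.35 with TMM factors, 0.42 by edgeR, 0.34 after thinning, 0.078 with the GC trend removed, 0.33 without the 6 tested members that share over 50% of their windows, and 0.069 to 0.37 without 1 library. Centring moved the median of all genes by 0.21, and the members' median stayed 0.32 to 0.56 above it over all 17 fits, the main one included. The ratio of the members' reads per 1000000 (1.21) was 1.10 to 1.35 without 1 library. Of the other pathway genes, increased calls (11) numbered 2 with a pseudocount of 0.1, 0 with the untrended prior or thinning and 17 by edgeR. Decreased calls (2) numbered 0 with a pseudocount of 0.1, no filter, the untrended prior or thinning, 5 with a pseudocount of 5 and 1 by DESeq2. Without 1 library they were 0 to 15 and 0 to 14.

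Replicate numbers did not pair the libraries (correlation of deviations −0.01 over 10475 genes). With a replicate block, 8 members were increased and 1 decreased, and 13 and 8 of the other genes. Of 382 refits of single genes, 309 kept direction and side of the threshold, 38 lost a call, 30 gained one and 5 changed sign. The changes of sign were *Srp14* (0.037 centred and −0.42 to 0.071 without 1 library, positive without control replicate 2 or *Eef1g*-cKO replicate 2), *Sec11a* (−0.14) and *Stt3a* (−0.12), the last 2 with the GC trend removed. The causes were not tested. Depth limits *Eef1g*-cKO most, where 14 and 10 members had at most 3 reads.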
